A study of Mus musculus with 2 samples.

Results

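Chemokine ligands were examined in Tregs of mice with BLM-induced pulmonary fibrosis. The 10 genes Ccl2, Ccl3, Ccl4, Ccl5, Ccl6, Ccl9, Ccl22, Cxcl2, Cxcl10 and Cxcl16 were taken by symbol from the 24346 symbols listed in each library, and all 10 were found. There were 2 libraries, 1 of spleen and 1 of lung, both made from GFP+CD4+ cells of Foxp3-DTR-GFP (FDG) mice on day 15 after intratracheal bleomycin (BLM, 50 μg), with the cells of 3 mice pooled in each. In these mice GFP is expressed from the endogenous Foxp3 locus and so labels Tregs. The methods give an age of 10 to 16 weeks for mice that received BLM. Both groups carried the reporter and received BLM, so there was no untreated lung and no Foxp3-negative T cell library. A difference between the libraries is one between organs and also between separately prepared libraries. The methods describe enzymatic and mechanical dissociation for lung and refer to earlier work for other tissues. Organ and cell preparation thus cannot be told apart. The values are FPKM, in which fragment counts are divided by exon length and by library depth. The spread between mice is unknown with 1 library per tissue, so differences are given without a test.

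Chemokines are small secreted proteins that guide the movement of leukocytes through G protein-coupled receptors. The CC and CXC families are named after the spacing of their first cysteines. Ccl2 attracts monocytes through Ccr2, Cxcl2 attracts neutrophils through Cxcr2, and Ccl22 attracts Tregs and Th2 cells through Ccr4. Activated T cells and NK cells are known sources of Ccl3, Ccl4 and Ccl5, whereas Ccl6 and Ccl9 are rodent chemokines made mainly by macrophages and other myeloid cells.

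In the splenic library Foxp3 was at 18.7 FPKM and Cd4 at 195, and in the lung library they were at 41.8 and 179, while Actb was at 1325 and 1242. The defining markers of the labelled cells were thus present in both. The summed FPKM of 8 T cell genes was 3327 in spleen and 3175 in lung. Reads behind each value were estimated from FPKM and transcript length, and summed to 9864920 in spleen and 12883500 in lung. Intervals given below for ratios are 95% exact (Clopper-Pearson) intervals on these estimated reads and cover counting error only, since PCR copies of a molecule are counted separately. Because each library is a bulk pool, fewer cells of a type and less RNA per cell cannot be told apart.

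All 10 chemokine ligands had a higher FPKM in lung than in spleen, where 51.5% of the 11421 symbols with a mean of at least 1 FPKM over both libraries were higher. All 10 passed this filter on the mean. Ccl2 (0.161 FPKM) and Ccl22 (0.542) were under 1 FPKM in spleen and passed it through their lung values. The ratio of lung to spleen, with values under 0.1 FPKM set to 0.1, exceeded 2-fold for 8 ligands, against 16% of these symbols, and was more than 2-fold lower for 0 ligands, against 13.7%. It exceeded 20-fold, the threshold used in the study, for 4 ligands (Ccl2, Ccl6, Ccl9 and Cxcl16), against 3.46%. The median log2 ratio was 4.23 over the ligands and 0.03 over the 11421 symbols. The 10 ligands were chosen with earlier results of these data known, so these counts may partly reflect the choice. Of 31 other chemokine ligands, 14 were over 2-fold higher, 3 over 2-fold lower and 10 at 0 in both libraries. Over all listed symbols 11% were over 2-fold higher and 11.7% over 2-fold lower. The ratios of the 10 ligands fell into separate ranges, a split made after the values had been seen. Ccl2, Ccl6, Ccl9, Ccl22, Cxcl2 and Cxcl16 were 18.8-fold to 89.0-fold higher in lung, whereas Ccl3, Ccl4, Ccl5 and Cxcl10 were 1.56-fold to 3.12-fold higher.

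**Figure D1:**
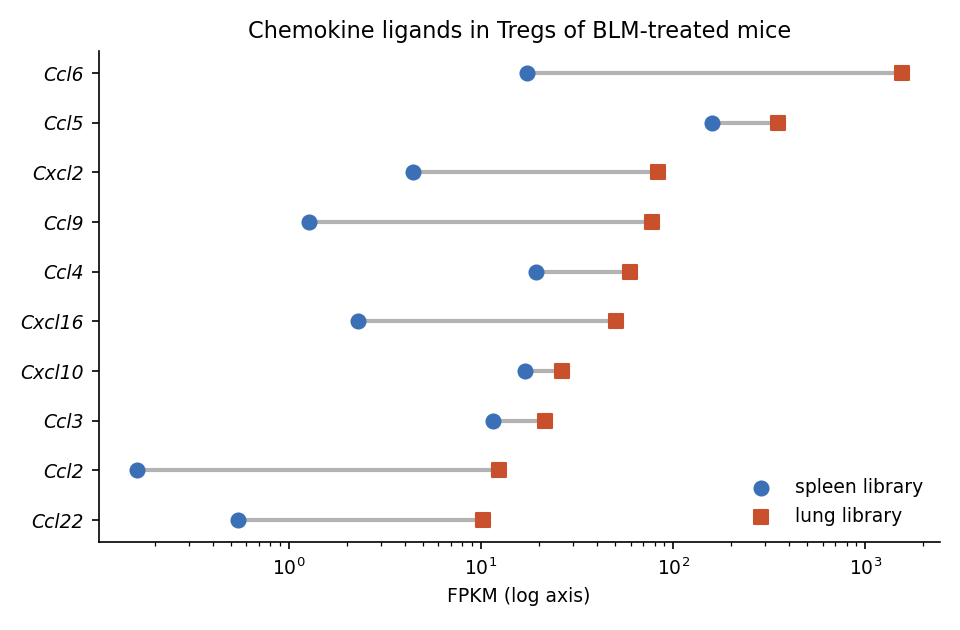
FPKM of the 10 chemokine ligands (log axis) in the splenic library (circles) and the lung library (squares), each point being 1 pooled library, ordered by the lung value. All 10 squares lie to the right of their circles, and Ccl6 moves from 17.4 to 1545 FPKM.

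The leading ligand differed between the tissues. In spleen the 10 ligands summed to 234 FPKM, of which Ccl5 took 68.4% and Ccl6 7.43%. In lung they summed to 2238 FPKM, of which Ccl6 took 69.0% and Ccl5 15.7%. Ccl6 alone accounted for 76.2% of the difference between the sums. Without Ccl6, the sum of the other 9 ligands was 216 FPKM in spleen and 693 in lung, which is 3.20-fold higher. Ccl4 and Cxcl10, which ranked 2 and 4 among the ligands in spleen, ranked 5 and 7 in lung, and Cxcl2 and Ccl9 moved from 6 and 8 to 3 and 4. FPKM is scaled to exon length, so levels of different genes can be compared on it.

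**Figure D2:**
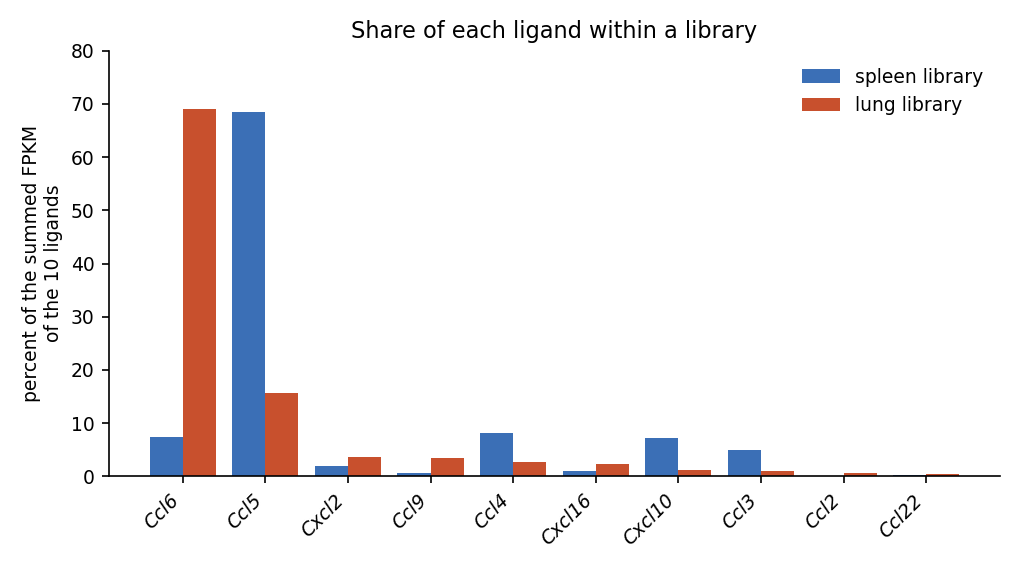
Share of each ligand in the summed FPKM of the 10 ligands (percent, bars from 0) in the splenic and the lung library, 1 pooled library each. Ccl5 holds 68.4% in spleen and Ccl6 holds 69.0% in lung.

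Ccl6 and Ccl9 signal through Ccr1 and lie close to each other on chromosome 11 of GRCm38 (mm10). Ccl6 occupies chr11:83587882-83593087 and Ccl9 chr11:83572919-83578636, both on the minus strand with 4 exons, and 9.25 kb separate them. Their upstream sequences are shown because both neighbouring genes had high ratios. Each is the stretch of 250 bases before the RefSeq start site (GRCm38.p6, minus strand, 5′ to 3′), chr11:83593088-83593337 for Ccl6 and chr11:83578637-83578886 for Ccl9. Capitals mark the runs of at least 10 bases that occur in both. These runs, of 12 and 13 bases, lie apart in Ccl6 and overlap in Ccl9. The joined block of capitals in Ccl9 is therefore not found whole in Ccl6.
Ccl6: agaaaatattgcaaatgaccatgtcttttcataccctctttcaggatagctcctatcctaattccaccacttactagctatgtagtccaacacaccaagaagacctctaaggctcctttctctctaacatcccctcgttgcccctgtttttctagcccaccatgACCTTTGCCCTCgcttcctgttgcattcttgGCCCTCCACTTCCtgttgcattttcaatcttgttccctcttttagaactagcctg
Ccl9: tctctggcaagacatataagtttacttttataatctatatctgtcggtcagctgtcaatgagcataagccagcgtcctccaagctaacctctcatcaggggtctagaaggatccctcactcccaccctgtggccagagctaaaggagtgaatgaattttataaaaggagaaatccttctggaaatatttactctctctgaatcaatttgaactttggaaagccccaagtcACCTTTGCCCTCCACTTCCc
Within the 250 bases printed, the best local alignment of Ccl6 and Ccl9 covered 17 positions, 16 of them identical (94.1%). Some other ligand pairs had longer but less identical alignments. That of Cxcl2 and Cxcl10 covered 41 positions (68.3% identical) and that of Ccl3 and Cxcl10 covered 30 (70%). With the first 50 bases of the transcript added, the alignment of Ccl6 and Ccl9 covered 74 positions, 58 of them identical (78.4%). It ran from -59 to 14 of Ccl6 and from -18 to 48 of Ccl9, counted from the start site. For Ccl9 this stretch thus lies mostly in transcribed sequence. The Ccl6 and Ccl9 mRNAs shared 0 stretches of 75 bases, the read length, with any other gene of the GENCODE annotation. Ccl6 overlaps E230016K23Rik, which was low (0.952 FPKM in spleen and 2.07 in lung).

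Ccl6 had 17.4 FPKM in spleen and 1545 in lung, and its rank by FPKM among all symbols went from 4868 to 72. The ratio was 89.0-fold (77.9 to 101.9), on about 222 and 22406 estimated reads. Ccl9 measured 1.27 FPKM in spleen and 77.3 in lung, 60.6-fold higher (43.8 to 86.2). The level of Ccl6 was thus 13.6 times that of Ccl9 in spleen and 20.002 times in lung. Only 0.771% of the 11421 symbols had a ratio as high as that of Ccl6, and 0.998% as high as that of Ccl9. The symbols nearest to Ccl6 in log2 FPKM over both libraries were Chil3 (17.4 and 1161 FPKM) and Wfdc17 (27.4 and 1352), at distances of 0.41 and 0.68. Chil3 is a marker of alveolar macrophages. Those nearest to Ccl9 were Il1rn (1.40 and 56.8) and AA467197 (1.56 and 49.6). Nearness over 2 libraries is a likeness of levels only.

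Genes of macrophages were higher in the lung library too, where 51.5% of the symbols with a mean of at least 1 FPKM were higher. All 12 genes of a monocyte and macrophage list were higher there, led by Lyz2 (376 and 24947 FPKM, 66.3-fold) and C1qb (129 and 560), and the list summed to 694 FPKM in spleen and 26207 in lung. Lyz2 made up nearly all of the lung sum. The median log2 ratio of the list was 1.89, and Csf1r (1.14-fold), Mrc1 (1.23-fold) and Adgre1 (1.66-fold) differed little. All 8 genes of an alveolar macrophage list were higher, led by Chil3 and Ear2 (9.24 and 205 FPKM), with a sum of 29.7 and 1626 FPKM, and Car4 and Krt79 were listed at 0 in spleen. For each FPKM of Lyz2, Ccl6 stood at 0.0461 FPKM in spleen and 0.0619 in lung, and Ccl9 at 0.00339 and 0.00310. Cxcl2 was at 0.0117 in spleen and 0.00333 in lung on the same scale, and Cxcl16 at 0.00607 and 0.00201. Ccl6 thus differed between the libraries somewhat more than Lyz2, while Cxcl2 and Cxcl16 differed clearly less. The counting interval of Ccl9 (43.8 to 86.2) held the ratio of Lyz2. Lyz2 was the only gene of the 12 that was over 20-fold higher. Compared with Cd68 (8.57-fold) or C1qb (4.34-fold), all of these ligands differed more. The part of macrophage RNA in the ligand values was not tested.

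**Figure D3:**
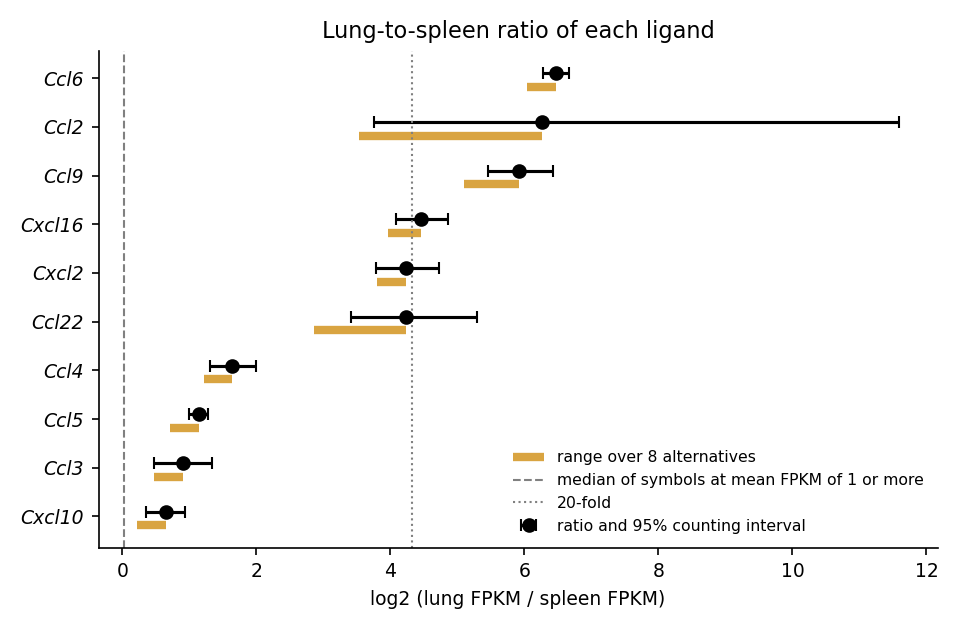
Log2 ratio of lung to spleen FPKM for each ligand (points, 1 library per tissue), with its 95% counting interval (bars) and the range over 8 alternative settings (thick lines). The dashed line is the median of 11421 symbols (0.03) and the dotted line marks 20-fold. Ccl3, Ccl4, Ccl5 and Cxcl10 lie at 1.64 or lower, and the others at 4.23 or higher.

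Ccl2 (chr11:82035571-82037453, plus strand, 3 exons), the main ligand of Ccr2, showed 0.161 FPKM in spleen and 12.4 in lung. The splenic value rested on about 1.012 estimated reads and the lung value on 88.0, so the 76.6-fold ratio had a wide interval of 13.6 to 3096. Crediting each library with at least 1 FPKM lowered the log2 ratio from 6.26 to 3.63, which is under 20-fold. F10 (0.168 and 11.6 FPKM) and Mgl2 (0.144 and 13.5) were nearest to Ccl2 in level. Ccr2 itself had 7.96 FPKM in spleen and 72.5 in lung, 9.11-fold higher. In lung the receptor was thus 5.87 times as high as the ligand.

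Ccl22 (chr8:94745590-94751699, plus strand, 3 exons) measured 0.542 FPKM in spleen and 10.2 in lung, 18.8-fold higher (10.6 to 39.2), on about 11.3 and 241 estimated reads. Among the 10 ligands it had the lowest level in lung. Gab2 (0.565 and 11.1 FPKM) and Gm16861 (0.583 and 11.05) were nearest to it in level. Ccl17, the other ligand of Ccr4, showed 0.315 FPKM in spleen and 19.2 in lung, so that Ccl22 was 1.72 times as high as Ccl17 in spleen and 0.531 times in lung. Ccr4 had 12.8 FPKM in spleen and 31.3 in lung, 2.45-fold higher. Both ligands are known products of dendritic cells and macrophages. Of 7 dendritic cell genes 4 were higher in lung, such as Itgax (1.36 and 24.1 FPKM) and Cd209a (3.86 and 15.3), against 29.5% of all listed symbols. Of all listed symbols, 10638 were listed at 0 in lung and so could not be higher there. Of the 5 dendritic cell genes with a mean of at least 1 FPKM 4 were higher, against 51.5% of such symbols. Flt3 and Clec9a, both lower in lung, were under that mean. Flt3 (1.43 and 0.172) and Siglech (2.78 and 1.71) were lower, the list summed to 12.6 FPKM in spleen and 55.8 in lung, and Clec9a was listed at 0 in lung. The part of dendritic cell RNA was not tested.

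Cxcl2 and Cxcl10 lie on chromosome 5, Cxcl2 at chr5:90903871-90905938 on the plus strand and Cxcl10 at chr5:92346638-92348889 on the minus strand, each with 4 exons. Cxcl2 is induced through NF-κB and Cxcl10 by interferons, and their upstream sequences are shown because they hold the matching motifs and because the ratios of these genes lay far apart. The 250 bases before the RefSeq start (GRCm38.p6, each on its own strand, 5′ to 3′) are chr5:90903649-90903898 for Cxcl2 and chr5:92348890-92349139 for Cxcl10. Capitals mark matches to a kappaB motif (GGG and TTTCC with any 2 bases between) in Cxcl2 and to an interferon-stimulated response element (ISRE) motif (GAAA and GAAA with any 2 bases between) in Cxcl10.
Cxcl2: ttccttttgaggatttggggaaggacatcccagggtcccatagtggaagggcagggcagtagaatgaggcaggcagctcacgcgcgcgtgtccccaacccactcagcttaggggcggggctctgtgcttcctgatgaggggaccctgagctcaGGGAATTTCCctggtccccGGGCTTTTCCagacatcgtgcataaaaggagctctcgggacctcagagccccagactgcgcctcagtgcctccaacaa
Cxcl10: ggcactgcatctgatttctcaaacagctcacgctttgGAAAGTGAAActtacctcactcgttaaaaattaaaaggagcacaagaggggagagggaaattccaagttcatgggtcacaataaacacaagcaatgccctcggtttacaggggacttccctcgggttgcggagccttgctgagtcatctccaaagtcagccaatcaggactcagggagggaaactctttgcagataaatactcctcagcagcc
Motifs were searched on both strands in the 300-base windows of 32851 promoters. The kappaB letters occurred in 1.63% of them and in Cxcl2 and Ccl9 among the 6 ligands with a window, and the ISRE letters in 3.44% and in Cxcl10 alone of the 6. Only these spellings were searched, so a window without a match, such as that of Cxcl10 for kappaB, may hold a site spelled otherwise. Cxcl2 held its matches at positions -97 to -88 and -78 to -69 and Cxcl10 at -213 to -204, while the match in Ccl9 was on the other strand at -35 to -26. The letters TATAAA of a TATA box occurred in 13.6% of windows and in Ccl9 among the 6 ligands. They lay at -92 to -87 as printed, and at -224 to -219 and -94 to -89 on the other strand. The same limit on spelling holds for this motif. Binding of a factor was not measured.

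Cxcl2 measured 4.41 FPKM in spleen and 83.1 in lung, 18.8-fold higher (13.8 to 26.6), on about 41.2 and 881 estimated reads. Of its stretches of 75 bases, 3.48% also occur in Cxcl3, so that some reads may be shared, and Cxcl3 was at 2.62 FPKM in lung and listed at 0 in spleen. Mcemp1 (3.86 and 79.4 FPKM) and Atf3 (5.67 and 87.7) were nearest to Cxcl2 in level. Cxcr2, its receptor, showed 4.87 FPKM in spleen and 8.06 in lung, a 1.66-fold difference. Of 7 listed neutrophil genes 4 were higher in lung, against 29.5% of all listed symbols, many of which were at 0 in lung. They were led by S100a8 (276 and 804 FPKM) and S100a9 (120 and 328). Of the 5 neutrophil genes with a mean of at least 1 FPKM 4 were higher, against 51.5% of such symbols. Mpo and Elane, both lower in lung, were under that mean. The neutrophil list summed to 460 FPKM in spleen and 1192 in lung. Mpo, Elane and Ngp of that list were at 0 in lung. The part of neutrophil RNA in the value of Cxcl2 was not tested.

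Cxcl10 had 16.9 FPKM in spleen and 26.4 in lung. Its ratio of 1.56-fold (1.28 to 1.92) was the lowest of the 10 ligands, and 23.9% of the 11421 symbols had a ratio as high. After rescaling to TPM its log2 ratio was 0.21 instead of 0.65, while the median of all these symbols moved by -0.43. Ahsa2 (17.1 and 26.7 FPKM) and Dusp12 (16.9 and 26.9) were nearest to it in level. Of its stretches of 75 bases 5.78% occur in the overlapping gene Art3, which measured 3.06 FPKM in spleen and 0.314 in lung. Cxcl9 and Cxcl11, the other interferon-induced ligands of Cxcr3, were looked at after their values had been seen. Cxcl9 showed 0.429 FPKM in spleen and 0.410 in lung, and Cxcl11 was listed at 0 in both. Cxcl10 was thus the highest of these interferon-induced ligands in either library. Cxcr3 had 82.8 FPKM in spleen and 99.2 in lung.

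Cxcl16 (chr11:70453983-70459984, minus strand, 5 exons) encodes a chemokine that is made as a transmembrane protein and shed by the proteases Adam10 and Adam17. It measured 2.28 FPKM in spleen and 50.3 in lung, 22.0-fold higher (16.9 to 29.0), on about 58.9 and 1473 estimated reads. The ratio went under 20-fold after rescaling to TPM (log2 ratio 4.03) and with a pseudocount of 1 FPKM (3.96). Of its stretches of 75 bases, 18.6% also occur in Zmynd15, which overlaps it and showed 0.558 FPKM in spleen and 3.08 in lung. Ier3 (2.41 and 45.1 FPKM) and C5ar1 (2.76 and 49.6) were nearest in level. Its receptor Cxcr6 had 22.0 FPKM in spleen and 147 in lung, 6.68-fold higher, and thus 9.63 and 2.92 times as high as the ligand. Adam10 was lower in lung (35.0 FPKM in spleen and 18.9 in lung) and Adam17 somewhat higher (25.2 and 32.8).

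Ccl3, Ccl4 and Ccl5, which attract T cells and monocytes, lie in the same cluster as Ccl6 and Ccl9, and these 5 genes span 138.9 kb of chromosome 11 (Ccl5 at chr11:83525778-83530518 and Ccl3 at chr11:83647844-83649355, both on the minus strand, and Ccl4 at chr11:83662584-83664683 on the plus strand, each with 3 exons). Within this cluster the ratios were thus uneven. Ccl5 measured 160 FPKM in spleen and 352 in lung, 2.199-fold higher (1.99 to 2.43), and ranked 595 and 369 among all symbols. After rescaling to TPM it was under 2-fold, with a log2 ratio of 0.71 instead of 1.14. Ccl4 showed 19.2 FPKM in spleen and 60.0 in lung, 3.12-fold higher (2.46 to 3.99).

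Ccl3 had 11.6 FPKM in spleen and 21.6 in lung, 1.86-fold higher (1.39 to 2.53). Ccl4 was 1.66 times as high as Ccl3 in spleen and 2.78 times in lung. The RefSeq span of Ccl4, which includes a predicted transcript, overlaps Ccl3 by 755 bases on the other strand, so reads in that stretch cannot be assigned without strand. The symbols nearest in level were Taldo1 (162 and 341 FPKM) and Txn1 (145 and 344) for Ccl5, Gadd45g (18.9 and 57.5) and Rras (20.1 and 61.0) for Ccl4, and Fam219b (11.8 and 21.8) and Lyrm5 (11.8 and 20.8) for Ccl3.

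Genes of CD8 T cells and NK cells, which also make Ccl3, Ccl4 and Ccl5, were partly higher in lung. Of 8 such genes 6 were higher, with Nkg7 at 134 FPKM in spleen and 236 in lung and Cd8b1 at 19.9 and 74.8, and the list summed to 180 and 351 FPKM. Of the 7 with a mean of at least 1 FPKM 6 were higher, against 51.5% of such symbols. Ncr1, an NK cell receptor, was at 2.69 FPKM in the spleen but listed at 0 in lung. The summed FPKM of this list was 1.95-fold higher and that of 6 Treg genes 2.01-fold higher in lung, led by Tnfrsf4 (486 and 1004 FPKM) and Tnfrsf18 (470.4 and 919), which carried most of the Treg sum. Of the 6 Treg genes, all with a mean of at least 1 FPKM, 4 were higher, against 51.5% of such symbols. Il2ra (89.4 and 59.1 FPKM) was lower and Ikzf2 (42.0 and 41.6) nearly equal. Among the 8 T cell genes 3 were higher and 5 lower, with Cd3g at 902 FPKM in spleen and 1103 in lung and Lck at 823 and 654. The part of these cells in the values of Ccl3, Ccl4 and Ccl5 was not tested.

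Lists of other cells were described in the same way. Over all listed symbols 29.5% were higher in lung, and over those with a mean of at least 1 FPKM 51.5%. Of genes with that mean, 3 of 5 epithelial, 4 of 4 fibroblast, 2 of 3 endothelial and 0 of 4 B cell genes were higher. The 5 listed B cell genes were lower in lung (239 and 123 FPKM in sum), led by Cd79b (90.4 and 59.7) and Cd79a (80.4 and 30.4). Of 6 epithelial genes 4 were higher, with Scgb1a1 at 1.48 and 3021 FPKM and Sftpc at 0 and 94.8, whereas Epcam (8.75 and 1.79) and Ager (2.27 and 1.74), the highest of the list in spleen, were lower. The sums were 12.8 and 3127 FPKM, nearly all of it Scgb1a1 in lung. All 6 fibroblast genes were higher (0.29 and 47.2 FPKM in sum), led by Dcn (0.122 and 22.2) and Col1a2 (0.0391 and 13.4). Of 5 endothelial genes 3 were higher and Pecam1 was lower (54.8 and 31.7 FPKM), with Cldn5 at 0.16 and 6.54, and the sums were 55.4 and 40.6. Of 5 mast cell and basophil genes 1 was higher (Fcer1a, 0.708 and 1.25 FPKM), Cpa3 was at 0.62 and 0.0682, Mcpt8 was listed at 0 in both and the sums were 2.13 and 1.35. The part of these cells in the ligand values was not tested.

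**Figure D4:**
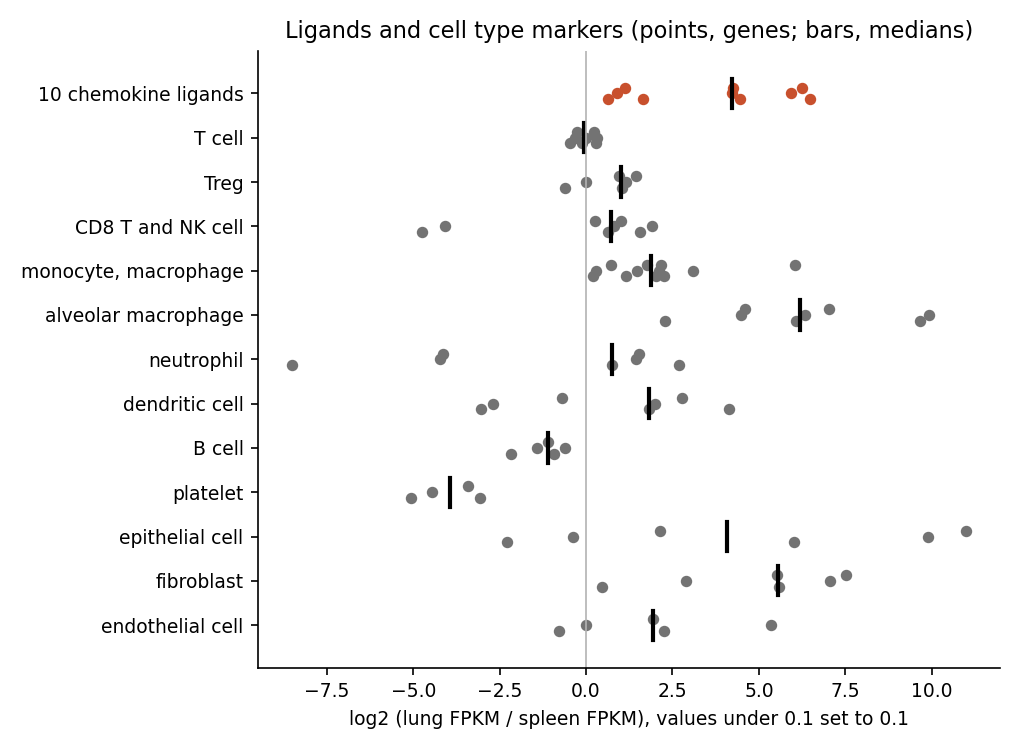
Log2 ratio of lung to spleen FPKM, with values under 0.1 FPKM set to 0.1, for the 10 ligands (top row) and for genes of 12 cell types, 1 point per gene and a bar at the median of each list. The ligands lie between 0.65 and 6.48, the T cell genes between -0.48 and 0.31, and the alveolar macrophage genes between 2.28 and 9.92.

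Other chemokine ligands were partly higher in lung as well. Of 31 listed, 14 were more than 2-fold higher, 3 were more than 2-fold lower and 10 were listed at 0 in both libraries. The 3 lower ones include a ligand with only about 2.01 estimated reads in spleen and 0 in lung. Over all 24346 listed symbols, 11% were more than 2-fold higher and 11.7% more than 2-fold lower. The eosinophil attractant Ccl24 went from 0.803 FPKM in spleen to 21.1 in lung, and the B cell attractant Cxcl13 from 1.72 to 24.1. Xcl1, a ligand made by T and NK cells, measured 8.21 FPKM in spleen and 35.0 in lung. Ccl8 and Ccl12, relatives of Ccl2, were at 43.5 and 9.07 FPKM in lung and listed at 0 in spleen, as were Cxcl17 at 6.47 and Cxcl14 at 2.204. Smaller levels were seen for Ccl1 (2.27 FPKM in spleen and 4.58 in lung), Ccl19 (0.754 and 2.32), Ccl27a (0.916 and 2.98) and Cx3cl1 (0.131 and 2.11). Ccl25 was at 4.42 FPKM in the spleen but listed at 0 in lung.

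Receptors that bind the ligands were measured in the same libraries. Of 9 such receptors 6 were higher in lung, 4 of them more than 2-fold, and 3 were more than 2-fold lower. Over all listed symbols 29.5% were higher, 11% more than 2-fold higher and 11.7% more than 2-fold lower. Of the 7 receptors with a mean of at least 1 FPKM 6 were higher, against 51.5% of such symbols. Ccr1, which binds Ccl3, Ccl5, Ccl6 and Ccl9, showed 1.99 FPKM in spleen and 42.1 in lung, 21.2-fold higher (16.2 to 28.4). Ccr3, which binds Ccl5, went the other way, from 10.6 FPKM in spleen to 0.554 in lung. The atypical receptors Ackr1 and Ackr2, which take up chemokines without signalling, were at 0.203 and 0.824 FPKM in spleen and listed at 0 in lung. The splenic value of Ackr1 rested on about 1.99 estimated reads, and its interval of 0-fold to 4.69-fold includes both directions. Of 13 other chemokine receptors 11 were higher in lung, among them Ccr8 (67.2 and 280.0 FPKM) and Ccrl2 (11.6 and 104.9). Dpp4, a protease that trims several chemokines, had 35.9 FPKM in spleen and 16.6 in lung.

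**Figure D5:**
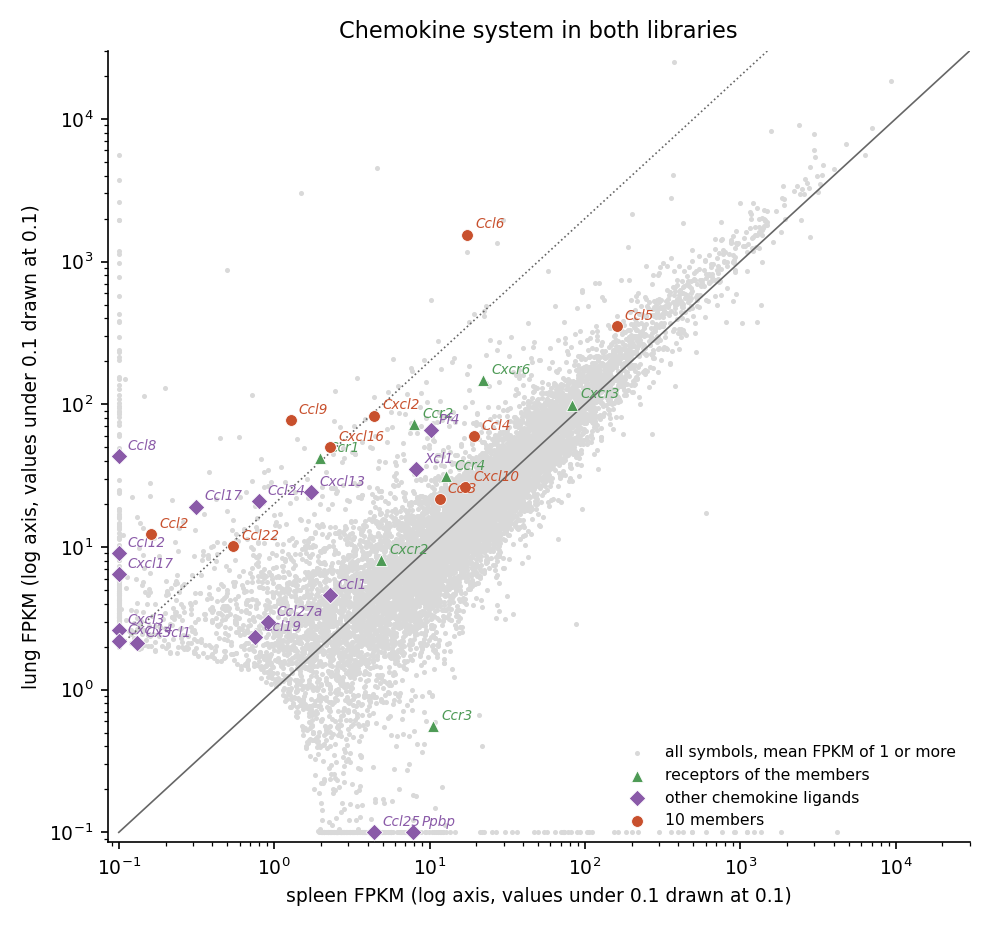
Spleen (x) and lung (y) FPKM on log axes, values under 0.1 drawn at 0.1, for the 10 ligands, other chemokine ligands and receptors of the members with a mean of at least 1 FPKM, over 11421 symbols in grey. The solid line marks equal levels and the dotted line 20-fold. Ccl2, Ccl6, Ccl9 and Cxcl16 lie above the dotted line, and Ccr3 lies far under the solid line.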

How the data were processed

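GFP+CD4+ cells of spleen and lung from BLM-treated FDG mice were analysed as 1 pooled library per tissue, grouped by their labels. Per the labels and methods, single-end reads of 75 bases were aligned by the authors with TopHat2 2.1.1, Bowtie2 2.2.8 and SAMtools 0.1.18 on mm10, and Cuffdiff 2.2.1 gave the deposited FPKM. The annotation and any scaling between libraries are not given in the sources used here.

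FPKM under 0.1 were set to 0.1 before lung was divided by spleen. Reads were estimated as FPKM times effective transcript length, divided by the value of 1 read, the most frequent low product in each library. Lengths came from GENCODE M21 and were found for 97.3% of symbols. Of genes with 1 length and 1 to 10 reads, 72.6% in spleen and 74.6% in lung lay within 0.1 of a whole number, so reads are approximate. The ligands and lists were chosen with earlier results of these data known. Named genes were the 10 ligands, 9 receptors (1 further receptor is not reported here), proteases, other ligands with a mean of at least 1 FPKM, Ccr8, Ccrl2, the 2 genes of each marker list with the highest FPKM in either library and the 2 symbols nearest to each ligand. Further marker genes were named after their values had been seen. Of 10 ligands, 6 had a RefSeq promoter in the table used. Ly6g and Ighm of the marker lists were not among the listed symbols. Other floors, pseudocounts, scalings and thresholds were tried. The steps were tested on simulated data. Calculations used scipy 1.17.1 and numpy 2.4.6 under Python 3.11.15.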

Additional observations from a re-analysis of the deposited data

How the results depend on the processing

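Each ligand stayed higher in lung under all 8 alternatives tried for the floor, the pseudocount, the scaling and the reads, which gave 80 ratios, and 68 of these lay within the counting interval of the reported ratio. Some of these agreements were fixed in advance, since a floor acts only on values under it. The floor of 0.01 FPKM altered no ligand ratio, that of 1 FPKM only Ccl2 and Ccl22, and a minimum of 3 estimated reads only Ccl2. The number of ligands over 20-fold higher was 4 as reported and 2 with a pseudocount of 1 FPKM, and the median log2 ratio of 4.23 became 3.49 with a floor of 1 FPKM and 3.19 with that pseudocount. Both settings shrink ratios of low values by construction. Rescaling to TPM moved the median log2 ratio of the 11421 symbols by -0.43 and left 7 ligands over 2-fold. Over all listed symbols, 1.62% exceeded 20-fold instead of 3.46%, since symbols near 0 were added. No paired analysis was possible because each tissue has 1 library, and no library could be left out for the same reason. The depth limits Ccl2 in spleen most, at about 1.012 estimated reads.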

Other observations

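The platelet chemokines Pf4 and Ppbp went in opposite directions. Pf4 measured 10.2 FPKM in spleen and 65.5 in lung, 6.45-fold higher, whereas Ppbp was at 7.85 FPKM in the spleen but listed at 0 in lung. The platelet genes Itga2b (2.21 FPKM), Gp9 (3.36), Gp1ba (0.842) and Gp5 (1.07) were present in spleen and all 4 were listed at 0 in lung. The part of platelets or of other cells in the value of Pf4 was not tested.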
